A study of Mus musculus with 6 samples.

Results

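RNA levels are given for 42 mouse genes of pre-mRNA splicing, out of 14455 gene symbols in the 4 RNA libraries. They were picked by name, from a proposal made with earlier results of these data known: 10 SR protein genes (Srsf), 20 heterogeneous nuclear ribonucleoprotein genes (Hnrnp, with Hnrnpa3 left out), 9 genes of the SF3A and SF3B complexes and 3 genes of 3′ splice site recognition (U2af1, U2af2 and Zrsr2). Each of the 42 was listed in all 4 libraries, so none rests on a substituted value. One of them, Hnrnpa1l2-ps, is a pseudogene by its name, and Srsf12 was not analysed here.

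The spliceosome removes introns in steps that begin with the marking of both intron ends. The U2AF heterodimer of U2af2 and U2af1 binds the pyrimidine tract and the AG at the 3′ end, and Zrsr2 does the like for the rare introns of the minor spliceosome. The U2 particle, with its SF3A and SF3B proteins, then settles on the branch point. SR proteins, named for their serine and arginine repeats, mostly promote the use of exons to which they bind, while hnRNP proteins coat nascent RNA and often oppose them. Many SR and hnRNP genes limit their own output through exons with a stop codon, whose inclusion sends the transcript to decay. A gene-level value adds such transcripts to the coding ones. In blood stem and progenitor cells these genes are studied because Srsf2, Sf3b1, U2af1 and Zrsr2 are recurrently mutated in myeloid neoplasms. Setd2, the gene deleted in this study, encodes the enzyme that trimethylates lysine 36 of histone H3, a mark laid down over transcribed gene bodies and linked to the choice of exons.

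The cells were bone marrow LSK cells (Lin- Sca-1+ c-Kit+), the fraction with stem cells and early multipotent progenitors, sorted from C57BL/6 mice. The 4 groups were Setd2 wild type (WT) and Setd2 conditional knockout (KO), each taken 4 weeks (young) or 8 months (old) after induction with pI-pC, an RNA that triggers the inducible deletion. By the labels, the ages of WT animals too are counted from pI-pC. The sources used here name neither the recombinase line nor how many animals a library pools. Each group had 1 total RNA library, so no difference has a replicate check, a p-value or an SD, and every statement describes these 4 libraries. In bulk RNA, fewer cells of a type and less RNA per cell cannot be told apart.

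The files gave FPKM (fragments per kilobase of transcript, corrected for sequencing depth), which allows levels of different genes to be compared per length and listed 13182 to 13327 genes per library. Values below are FPKM scaled between libraries, and 4 values in a row follow the order young WT, young KO, old WT, old KO. Numbers are levels unless called otherwise, and differences are on the log2(scaled FPKM + 1) scale unless called a ratio. If each step between low values is 1 fragment, which the files do not state, the counting error at an FPKM of 10 and a length of 1 kb was 10.2%, 10.5%, 7.48% and 7.44%. That error covers counting alone. Setd2 stood at 14.1, 12.4, 15.3 and 15.5, and a gene-level value does not check a deletion of some exons. The sort genes Kit (61.0, 52.9, 44.5 and 41.1) and Ly6a, which encodes Sca-1 (4.86, 3.17, 8.80 and 4.18), were present in each library. Other cells' markers differed beside the genotypes. In the order just given, the summed level of 12 erythroid genes, all listed in every library, was 280, 658, 226 and 155. By this sum young KO was highest and old KO lowest, but the genes split between old KO and old WT, with 6 differences above and 6 below 0. The summed level of 7 monocyte genes, also all listed, was 83.1, 76.8, 88.9 and 389. That of 8 neutrophil genes, of which 2 and 4 were listed in young WT and KO and all in the old pair, was 3.77, 8.09, 42.0 and 361. That of 9 plasma cell genes, of which 6 and 7 were listed in young WT and KO and all in the old pair, was 577, 879, 41949 and 5490. Old KO thus stood apart in the monocyte and neutrophil sums and old WT in the plasma cell sum. The sums of 7 B cell genes ran from 7.85 to 42.4, with 1 to 6 genes listed, and those of 7 T and NK genes from 35.9 to 59.0, with 2 to 6 listed. The part of these cells in the values below was not tested.

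Most splicing genes were strongly expressed and nearly level between genotypes. Their median level was 26.8, against 6.40 over the 12024 genes listed in all 4 libraries, and the median member stood at percentile 89.9 of the listed genes. The ratio of the highest to the lowest library had a median of 1.32 over the members and 1.45 over all those genes. It reached 1.5 for 12 of 42 members (28.6%), where 46.1% of all genes reached it. This ratio takes in age as well as genotype and carries no pseudocount, and those genes were not matched to the members for level. The widest differences between genotypes were those of 3 SR genes: Srsf1 was higher in KO at both ages, and Srsf4 and Srsf9 were lower in young KO.

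**Figure D1:**
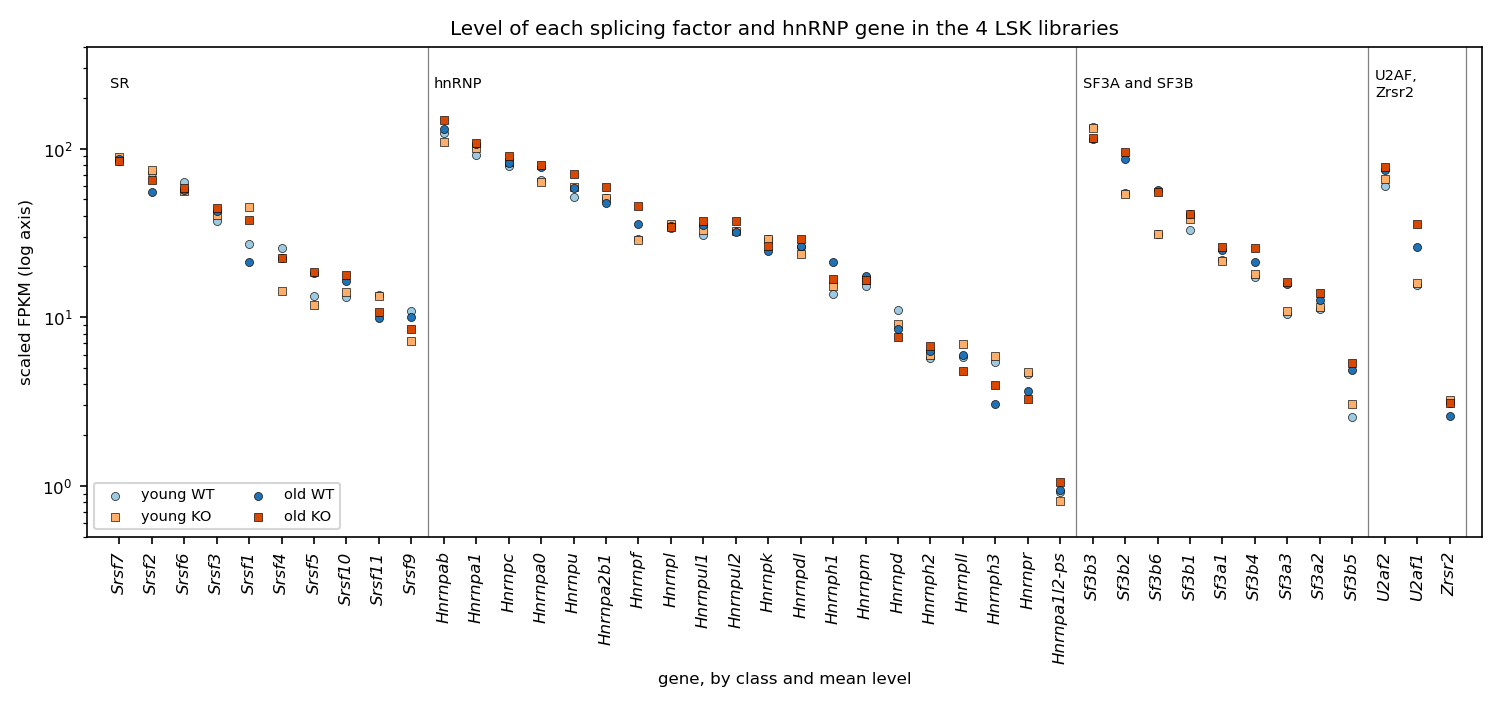
Scaled FPKM (log axis) of each of the 42 genes in the 4 libraries, by class and by mean level within a class. Points stand for single libraries (circles WT, squares KO, pale young, dark old). Most genes have their 4 points close together, while Srsf1, Srsf4, U2af1 and Sf3b6 spread visibly.

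In young cells, 2 of 41 measured members (4.88%) differed by 1.5-fold or more between KO and WT, 1 higher and 1 lower. The same held for 7.77% of all 12409 genes measured, 4.13% higher and 3.64% lower. In old cells it was 1 of 42 members (2.38%), higher in KO, against 12% of 12478 genes, 5.51% higher and 6.48% lower. No member reached 2-fold in either comparison, where 1.72% of genes did in young and 4.3% in old cells. The median difference of the members was 0.04 in the young and 0.08 in the old pair, and that of all genes 0.00 in both. These medians turned to -0.06 in young cells without scaling and to -0.01 in old cells with total scaling, settings that moved the median of all genes to -0.10 and -0.08.

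Differences of any size were small at the median. The median absolute difference in the young pair was 0.08 over the members and 0.17 over all genes. In the old pair it was 0.11 and 0.19. The background was smaller among highly expressed genes. Among genes with a mean of 20 or more, 6.24% of 2020 in young and 10.8% of 2027 in old cells were past 1.5-fold, against 2 of 26 and 1 of 26 members. By this count the members did not differ less often than those genes in young cells. The median absolute difference of those genes was 0.13 in young and 0.15 in old cells, below the 0.17 and 0.19 of all genes. For the members of that level it was 0.07 and 0.09. The part of expression level in these differences was not tested.

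**Figure D2:**
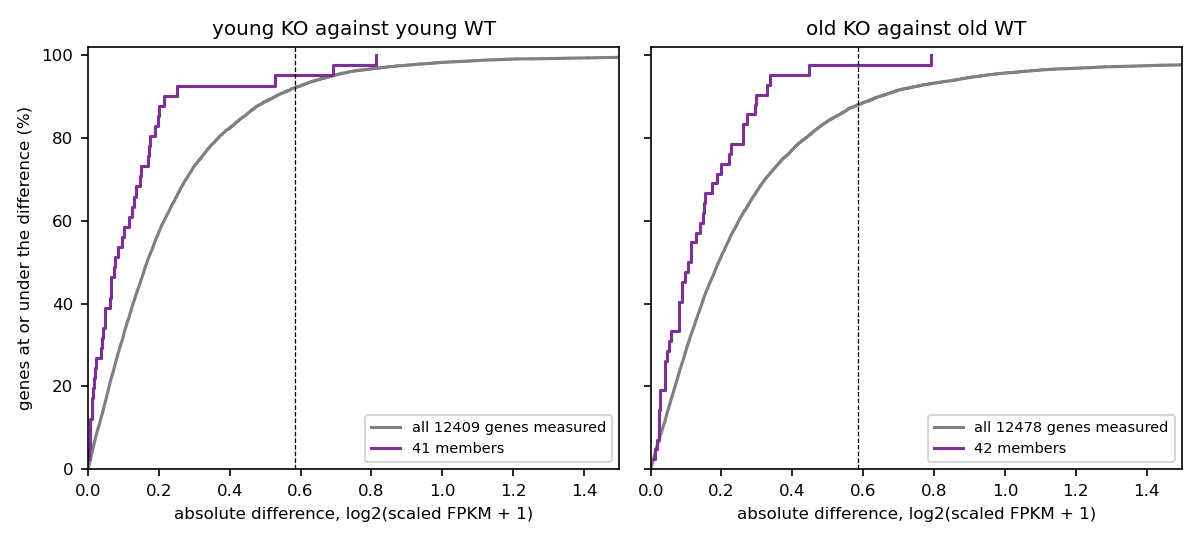
Cumulative percent of genes (y axis) at or under an absolute KO difference on the log2(scaled FPKM + 1) scale (x axis), for young (left) and old (right) libraries; the dashed line is 1.5-fold. The curve of the members lies to the left of that of all genes measured over most of the range, with Srsf1 and Srsf4 past the line in young and Srsf1 in old cells.

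The direction of the KO difference was shared between ages about as often among the members as among all genes. The 2 KO comparisons have no library in common. Of 41 members measured in both, 18 lay above 0 and 2 below 0 at both ages, 13 were below 0 in young and above 0 in old, and 8 the reverse. Thus 20 of 41 (48.8%) kept their sign, as did 51.5% of 11873 genes. One member, Srsf1, was past 1.5-fold in the same direction at both ages, where 53 of the 11873 genes (0.446%) were higher at both. Among the 2020 genes with a mean of 20 or more, 6 were. No member was past 1.5-fold in opposite directions.

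**Figure D3:**
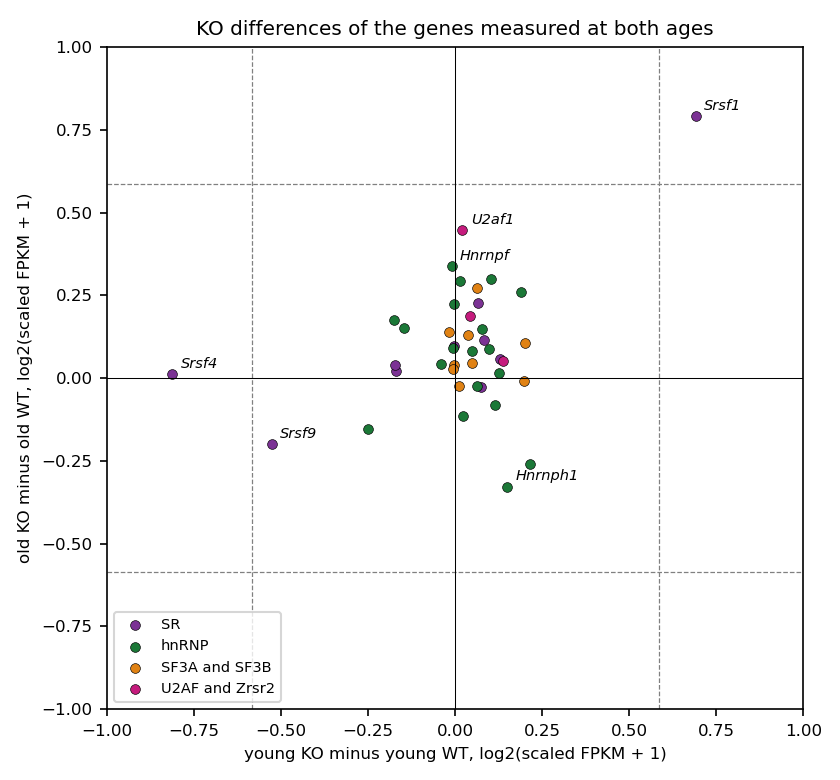
KO minus WT on the log2(scaled FPKM + 1) scale in young (x axis) and old (y axis) libraries for the 41 members measured at both ages; each point is a gene and dashed lines mark 1.5-fold. Srsf1 lies past the line at both ages, at 0.69 and 0.79, Srsf4 in young only, at -0.81, and most other points lie near the centre.

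Srsf1 encodes the SR protein first known as ASF/SF2, which promotes the use of nearby splice sites and also acts in translation and decay of mRNA. The gene (ENSMUSG00000018379) lies on chromosome 11 from 88047373 to 88053755 (mm10). Its level was 27.4 in young WT against 44.8 in young KO, then 21.4 in old WT against 37.7 in old KO. Both KO libraries thus lay above both WT libraries, with KO to WT ratios of 1.64 in young and 1.77 in old cells. On the log2 scale the differences were 0.69 and 0.79. Without scaling the young value was 0.58, just short of 1.5-fold, while the median of all genes lay at -0.10. Its percentile among listed genes, which needs no scaling, was 91.2 and 95.6 in young WT and KO and 85.7 and 93.3 in old WT and KO. The predicted gene Gm11508 overlaps the locus and stood at 0.89, 0.77, 0.65 and 1.16, far below Srsf1.

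Srsf4, a large SR protein also called SRp75, was lower in 1 library alone. The gene (ENSMUSG00000028911; chromosome 4, 131873617 to 131901706) stood at 25.8, 14.3, 22.3 and 22.5. The 2 old libraries were level, at a difference of 0.01, and young KO lay at 0.553 of young WT, a difference of -0.81. The gap between the young and the old KO difference was not tested. A930004J17Rik overlaps Srsf4 and stood at 17.9, 16.0, 13.6 and 12.3. The sources used here do not say whether counting used strand, so reads of the pair may be shared.

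Srsf9 (ENSMUSG00000029538; chromosome 5, 115327177 to 115333080), a short SR protein close to Srsf1 in build, had the lowest mean level of the class. It stood at 10.9, 7.28, 9.97 and 8.55. Both KO libraries lay below both WT libraries, by -0.53 in young and -0.20 in old cells. The ratio of young KO to young WT was 0.666. With the pseudocount, the young difference falls short of 1.5-fold on the scale used, and it passes 1.5-fold without scaling, at -0.63.

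The regulatory sequence directly upstream is shown for the 3 SR genes with a KO difference and for U2af1, which had the widest range of all members, because a gene-level difference can be read beside its promoter. Sequences are from the RefSeq promoter table (GRCm38.p6), end at the start of the gene, run 5′ to 3′ on the gene's strand and leave out bases inside the deposited locus. They cover chr11:88047123-88047372, plus strand, for Srsf1; chr4:131873387-131873616, plus strand, for Srsf4; chr5:115326927-115327176, plus strand, for Srsf9; and chr17:31658765-31659014, minus strand, for U2af1. Capitals mark matches to the motifs spelled out after them.
Srsf1: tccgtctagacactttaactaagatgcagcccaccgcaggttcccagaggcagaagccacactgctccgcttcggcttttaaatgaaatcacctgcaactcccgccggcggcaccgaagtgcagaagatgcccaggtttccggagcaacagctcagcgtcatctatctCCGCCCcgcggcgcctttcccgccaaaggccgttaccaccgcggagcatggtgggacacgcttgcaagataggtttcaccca
Srsf4: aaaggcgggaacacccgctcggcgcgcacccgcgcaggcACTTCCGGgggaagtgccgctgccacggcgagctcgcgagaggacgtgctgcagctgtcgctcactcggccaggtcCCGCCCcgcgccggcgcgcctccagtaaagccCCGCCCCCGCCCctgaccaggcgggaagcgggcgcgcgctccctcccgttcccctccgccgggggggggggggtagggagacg
Srsf9: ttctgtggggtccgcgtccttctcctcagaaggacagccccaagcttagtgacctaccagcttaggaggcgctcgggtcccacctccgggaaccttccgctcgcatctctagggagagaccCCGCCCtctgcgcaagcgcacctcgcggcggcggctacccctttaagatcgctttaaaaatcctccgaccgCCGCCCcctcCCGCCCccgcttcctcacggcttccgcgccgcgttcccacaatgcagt
U2af1: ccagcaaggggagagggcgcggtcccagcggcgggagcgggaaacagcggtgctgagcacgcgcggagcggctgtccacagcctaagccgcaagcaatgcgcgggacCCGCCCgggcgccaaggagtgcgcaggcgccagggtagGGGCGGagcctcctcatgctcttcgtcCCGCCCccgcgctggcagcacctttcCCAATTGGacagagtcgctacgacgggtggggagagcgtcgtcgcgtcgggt

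Each motif was searched on both strands in the 250 bases before the most upstream start of 36 members with an entry. Hnrnpa1l2-ps, Hnrnpll, Hnrnpul2, Sf3b4, Sf3b5 and U2af2 had none. The windows of Hnrnpdl, Hnrnph3, Hnrnpk, Hnrnpl, Hnrnpm, Sf3a2 and Srsf10 lie wholly inside the deposited locus and not upstream of it. Some others lie partly inside, such as that of Sf3a3 with 85 bases. All of these windows were kept in the counts. The GC box GGGCGG was found in 27 of 36 windows (75.0%), against 33.0% of 27025 promoter windows of the same length. The CCAAT box was found in 17 of 36 (47.2%), against 34.5%. The ETS motif CCGGAAGT was found in 6 of 36 (16.7%), against 2.92%, the TATA box TATAAA in 4 of 36, against 13%, the E-box CACGTG in 1, against 6.04%, and the CRE motif TGACGTCA in 0, against 1.60%. The windows of the members held a median of 22.5 CpG pairs and 61.6% G and C, against 6 pairs and 52.0% over all windows. The windows compared were not matched to the members for expression, CpG pairs or G and C. Whether other highly expressed genes have like shares of these motifs was not tested. In the printed sequences, Srsf1 has 1 GC box, Srsf4 has 3 and an ETS match, Srsf9 has 3, and U2af1 has 3 and a pair of overlapping CCAAT matches on opposite strands. A match describes letters in the window and not a bound site.

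**Figure D4:**
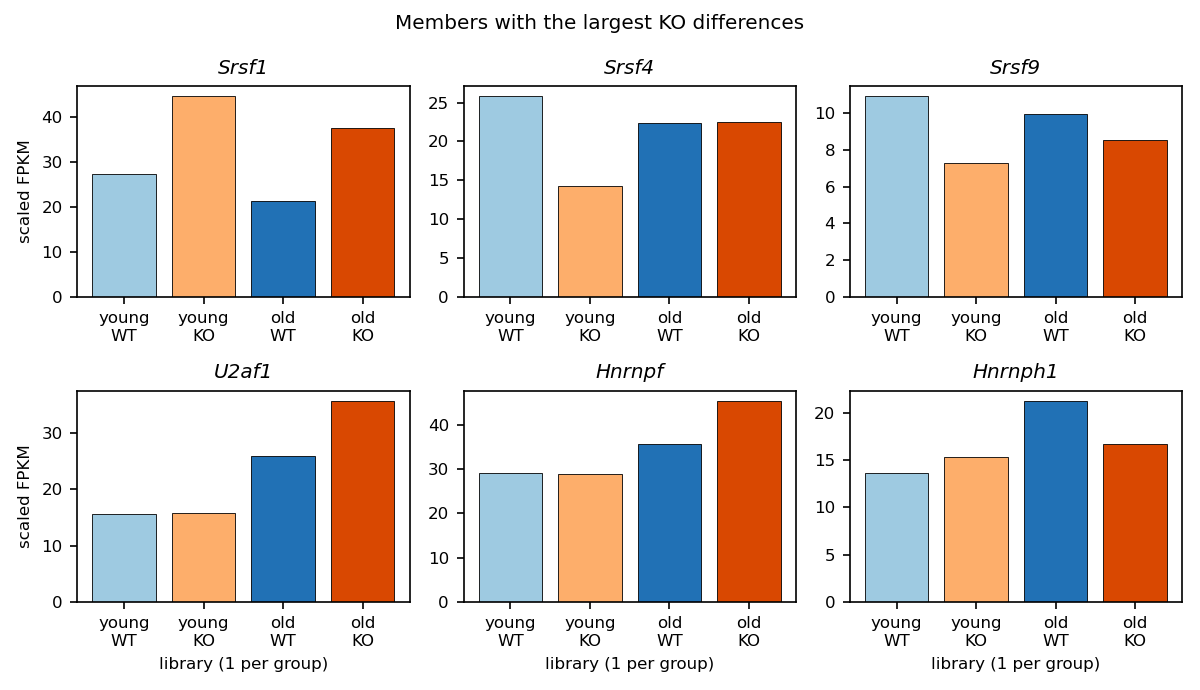
Scaled FPKM (y axis, from 0) in each of the 4 libraries for the 6 members with the largest KO differences in the text; each bar is 1 library and there are no error bars. Srsf1 is higher in both KO libraries, Srsf4 is low in young KO only, and U2af1 is higher in both old libraries and highest in old KO, at 35.8.

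The other SR genes differed little with genotype. Srsf7, which also serves in mRNA export, had the highest mean level of the class and stood at 84.7, 89.2, 86.6 and 84.9. Srsf2, also known as SC35 and mutated in myeloid neoplasms, stood at 71.4, 74.8, 55.6 and 65.2. Its KO differences were 0.07 and 0.23, and both old libraries lay below both young ones. Srsf6 stood at 63.3, 56.1, 56.9 and 58.5, with young WT the highest. Srsf3, the smallest SR protein, stood at 37.0, 40.5, 42.6 and 44.3. Srsf5, at 13.4, 11.8, 18.4 and 18.7, separated by age rather than genotype, with the old libraries higher. Srsf10, a splicing repressor when dephosphorylated, did so less, at 13.2, 14.1, 16.4 and 17.9. Srsf11 went the other way, at 13.5, 13.4, 9.94 and 10.7. Of the 10 SR genes, 5 lay above and 5 below 0 in the young KO comparison and 8 above and 2 below in the old one. Over all genes measured, 49.5% lay below 0 in the young and 49.7% in the old comparison. Some of these signs turned with the settings. Srsf2, Srsf7 and Srsf10 reached down to -0.05, -0.04 and -0.02 in the young comparison. Srsf3, Srsf4, Srsf5 and Srsf6 reached down to -0.04, -0.08, -0.07 and -0.06 in the old one.

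None of the hnRNP genes reached 1.5-fold between KO and WT at either age, where 7.77% of all genes in young and 12% in old cells did. Their differences ran from -0.25 to 0.21 over 19 genes in young and from -0.33 to 0.34 over 20 genes in old cells, with medians of 0.05 and 0.08. Hnrnpf and Hnrnph1 encode related proteins that bind runs of G, and they differed in opposite directions in the old pair. Hnrnpf stood at 29.1, 28.8, 35.8 and 45.5, so that old KO was the highest and the 2 young libraries were level. Hnrnph1 stood at 13.7, 15.3, 21.3 and 16.8, with old WT apart from the others. The old KO differences were 0.34 for Hnrnpf and -0.33 for Hnrnph1. Their relatives Hnrnph2 (5.72, 5.95, 6.35 and 6.77) and Hnrnph3 (5.45, 5.93, 3.05 and 3.98) lay lower, and Hnrnph3 was lower in both old libraries.

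Of the hnRNP genes, Hnrnpab had the highest mean, at 123, 109, 130 and 147. Hnrnpa1, an antagonist of SR proteins at exons, stood at 92.1, 101, 107 and 108. Hnrnpc, which binds runs of U and keeps cryptic exons out of mRNA, stood at 78.7, 83.0, 81.9 and 90.8. Each of these 3 kept within a ratio of 1.35 between its highest and lowest library. Hnrnpa0 stood at 65.5, 63.7, 77.8 and 80.1, higher in the old pair. Hnrnpa2b1, a paralog of Hnrnpa1 that also sorts RNA for transport, stood at 50.7, 51.2, 47.8 and 58.8. Hnrnpu, also called SAF-A, a protein of the nuclear matrix, stood at 51.7, 59.0, 58.5 and 70.3, higher in KO at both ages by 0.19 and 0.26.

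Of the middle group, Hnrnpl, which binds CA repeats, was among the steadiest members, at 34.0, 35.5, 34.8 and 34.2. Hnrnpul1 stood at 30.6, 32.8, 35.1 and 37.4, and Hnrnpul2 at 32.4, 32.3, 31.9 and 37.4. Hnrnpk, a poly-C binding protein, stood at 29.0, 28.9, 24.7 and 26.4. These 4 genes lay within a ratio of 1.22. Hnrnpdl stood at 26.2, 23.6, 26.3 and 29.3 and Hnrnpm at 15.3, 16.6, 17.5 and 16.5. Hnrnpd, whose protein AUF1 steers the decay of AU-rich mRNAs, stood at 11.0, 9.12, 8.58 and 7.61, lower in KO at both ages by -0.25 and -0.15. Hnrnpll, which directs exon choice of the Ptprc (CD45) transcript in lymphocytes, stood at 5.82, 6.92, 5.94 and 4.80, and its KO differences had opposite signs, at 0.21 and -0.26. Hnrnpr stood at 4.62, 4.71, 3.65 and 3.30. The pseudogene Hnrnpa1l2-ps stood at 0.916, 0.819, 0.946 and 1.06, was under the minimum of 1 in both young libraries and has the lowest mean of all members. Reads that a gene shares with a processed copy cannot be told apart in a gene-level value.

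The 9 genes with Sf3a or Sf3b names were nearly level between genotypes and differed more between old and young libraries. This class goes by name and leaves out Phf5a, kept here in the list of the Prp19 complex and helicases. Phf5a stood at 33.6, 41.7, 32.4 and 44.8, higher in KO at both ages by 0.30 and 0.45. The KO differences of the 9 ran from -0.02 to 0.20 in young and from -0.02 to 0.27 in old cells. Sf3b3, the scaffold of SF3B, had the highest mean of the class, at 134, 133, 114 and 116. Sf3b1, which holds the branch point and is the splicing gene most often mutated in myelodysplasia with ring sideroblasts, stood at 33.0, 38.1, 41 and 40.8. Its KO differences were 0.20 and -0.01. Sf3b4 stood at 17.3, 18.1, 21.2 and 25.7, and its old KO difference of 0.27 was the highest of the class. Sf3b5, one of the smallest subunits, had the lowest mean, at 2.56, 3.08, 4.88 and 5.33.

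Sf3b2, Sf3b5 and Sf3b6 were past 1.5-fold higher in the old libraries of both genotypes, and Sf3b6 stayed so in all scalings and pseudocounts tried. Sf3b2 fell short in WT unscaled and with total scaling, at 0.55 in both. Sf3b5 fell short with a pseudocount of 5, at 0.39 in WT and 0.35 in KO, and in KO also with upper-quartile and total scaling, at 0.54 and 0.47. Sf3b2 stood at 54.2 and 53.5 in young WT and KO and at 86.7 and 95.5 in old WT and KO. Sf3b6, also called p14, which contacts the branch point adenosine, stood at 31.1 and 31.3 in young and 56.6 and 55.6 in old cells. In both genes the old libraries lay far from the young ones and the genotypes together. Sf3a3 stood at 10.5, 10.9, 15.7 and 16.3, Sf3a1 at 21.8, 21.7, 25.2 and 25.9 and Sf3a2 at 11.2, 11.5, 12.6 and 13.9. Of the 9 genes, 8 were higher in old cells in each genotype, and Sf3b3 was lower. Over all genes measured, 50.8% in WT and 50.2% in KO were lower in old cells. Under other settings the Sf3b1 difference in KO reached down to -0.10.

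U2af1 encodes the small subunit of U2AF, which reads the AG at the end of the intron, and it had the widest range of the 42 genes. The gene (ENSMUSG00000061613; chromosome 17, 31647082 to 31658754) stood at 15.6, 15.9, 26.0 and 35.8. The young libraries were level and both old ones higher, with old KO 1.38 times old WT, a difference of 0.45. That is the highest old KO difference of the members after Srsf1, and is short of 1.5-fold. Its partner U2af2 stood at 59.6, 65.7, 74.8 and 77.6. Zrsr2, the X-linked counterpart of U2af1 at minor introns, stood at 3.11, 3.23, 2.60 and 3.10, with old WT the lowest.

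Old against young libraries was the wider contrast, and it carries more than age. Xist, expressed from the inactive X chromosome, had a WT level of 291 and a KO level of 279 in the old pair and has no young value here, while the Y-linked Eif2s3y had a WT level of 9.91 and a KO level of 11.9 in the young pair and has no old value, so that age and sex cannot be told apart. The sums of other cells' markers given at the start also moved with this contrast: plasma cell genes from 577 to 41949 in WT and from 879 to 5490 in KO, neutrophil genes from 3.77 to 42.0 and from 8.09 to 361, monocyte genes from 83.1 to 88.9 and from 76.8 to 389, and erythroid genes from 280 to 226 and from 658 to 155. In WT the erythroid genes split, with old minus young differences of 6 above and 6 below 0, while in KO all 12 lay below 0. Of the 7 monocyte genes, 2 lay above and 5 below 0 in WT, against the rise of their sum, and in KO all 7 lay above 0. The part of these other cells in the differences between old and young libraries was not tested. Each comparison also shares its libraries with the KO comparisons. In WT, 5 of 41 members were past 1.5-fold higher in old cells, against 9.93% of 12569 genes, and 1 was lower, against 5.88%. In KO, 7 of 42 were higher, against 12.4% of 12534 genes, and 0 lower, against 8.01%. The 5 in WT were Sf3b6, Sf3b5, U2af1, Sf3b2 and Hnrnph1, at 0.84, 0.73, 0.70, 0.67 and 0.60, and the lower one was Hnrnph3, at -0.67. In KO the 7 were U2af1, Sf3b2, Sf3b6, Hnrnpf, Sf3b5, Srsf4 and Srsf5, at 1.12, 0.82, 0.81, 0.64, 0.63, 0.62 and 0.62. U2af1 was the 1 member past 2-fold, at a ratio of 2.25, where 4.95% of genes were 2-fold higher. Its log2 difference was 0.93 with total scaling and 0.97 with a pseudocount of 5, short of 2-fold. For Srsf4 the young KO library was the low one. Not all of these calls stood under other settings: Hnrnph1 in WT, and Hnrnpf, Srsf4 and Srsf5 in KO, fell short of 1.5-fold with upper-quartile scaling, with total scaling and with a pseudocount of 5, Hnrnph1 also unscaled, and Hnrnph3 in WT fell short with a pseudocount of 5.

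The median old minus young difference of the members was 0.13 in WT and 0.18 in KO, against -0.01 and 0.00 over all genes. With total scaling they were 0.03 and -0.01, and since the median of all genes then lay at -0.11 and -0.17, the members stood 0.14 and 0.16 above it. Short genes moved with this contrast. Of genes with a locus under 5 kb, 22.9% were past 1.5-fold higher in old WT, against 7.06% from 5 to 50 kb and 4.08% above, and in KO these shares were 25.2%, 10.1% and 5.06%. Of the 42 members, 5 have a locus under 5 kb, of which Sf3b5 is 1, and the part of gene length in the values was not tested.

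**Figure D5:**
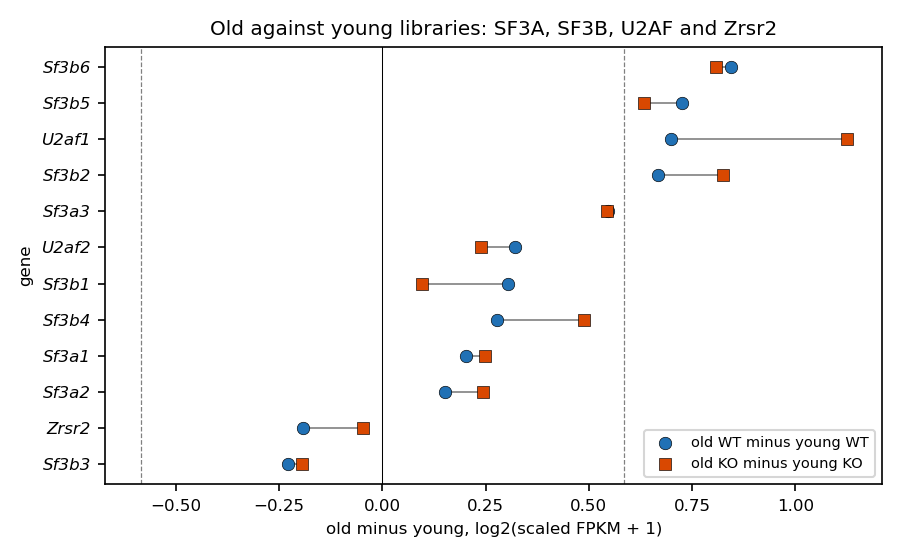
Old minus young on the log2(scaled FPKM + 1) scale (x axis) for the 12 genes of SF3A, SF3B, U2AF and Zrsr2; circles are WT, squares are KO, a line joins the 2 values of a gene and dashed lines mark 1.5-fold. Sf3b6, Sf3b5, U2af1 and Sf3b2 lie past the line in both genotypes, and Sf3b3 and Zrsr2 lie below 0.

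Other genes of splicing, from 7 lists, were also mostly level between genotypes. Of 171 genes measured in young cells, 2 were past 1.5-fold higher in KO and 2 lower, with a median of 0.03, against 4.13% and 3.64% of all genes. Of 172 in old cells, 1 was higher and 6 lower, with a median of 0.06, against 5.51% and 6.48%. In the list of the U4/U6.U5 tri-snRNP, Txnl4a stood at 3.94, 10.7, 4.53 and 5.64, and Cd2bp2, which encodes a U5 protein, at 2.18, 5.59, 3.80 and 2.32. Both were 2-fold higher in young KO, where 1.02% of genes were, at 1.24 and 1.05 on the log2 scale. In the list of SR kinases and phosphatases, the protein phosphatase gene Ppp1cc stood at 5.64, 2.21, 5.08 and 1.75. It was 2-fold lower in KO at both ages, at -1.05 and -1.14, where 0.701% of genes in young and 2.66% in old cells were. Ppp1cb, its paralog, stood at 19.97, 20.5, 20.7 and 11.9, low in old KO alone. Sap18, of the exon junction complex list, stood at 3.45, 3.81, 4.53 and 1.34 and was 2-fold lower in old KO, at -1.24.

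In the list of U1 and Sm proteins, which also holds the U2 genes Snrpa1 and Snrpb2 and whose Sm members form the core ring of spliceosomal particles, 1 of 12 genes was past 1.5-fold between genotypes. This was Snrpg, at 1.37, 1.58, 2.60 and 4.90, higher in old KO by 0.71. Of all genes, 7.77% in young and 12% in old cells were past 1.5-fold between genotypes. Between ages 6 of 12 were higher in old WT and 7 of 12 in old KO, with medians of 0.56 and 0.71, against the 9.93% and 12.4% of all genes above. Snrpd2 stood at 4.99 and 6.29 in young and at 14.1 and 11.7 in old WT and KO. In the list of the Prp19 complex and helicases, 0 of 36 genes were past 1.5-fold in either KO comparison, against the 7.77% and 12% of all genes. Its largest differences were Dnajc8, at 6.60, 6.43, 4.88 and 7.60, and Cwc15, at 4.59, 3.04, 7.08 and 6.00. In that of other RNA-binding regulators, of 54 genes, 0 were past 1.5-fold in young and 1 in old cells, against the same shares. The 1 was Luc7l, a U1-associated protein gene, at 6.86, 7.49, 11.9 and 7.22. The next was Luc7l3, at 7.79, 11.7, 8.25 and 8.85. In the minor spliceosome list, Zrsr1 stood at 1.17, 1.20, 1.98 and 0.88, lower in old KO by -0.67, and Ddx59 at 2.20, 1.07, 2.61 and 2.22, lower in young KO by -0.62.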

How the data were processed

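The 4 libraries were total RNA libraries of sorted LSK cells, each made from 100 ng of RNA, per the labels' protocols. The 2 bisulfite sequencing samples were not analysed here. The deposited files give 1 FPKM per gene, per the file headers, and list genes at 0.5 or more, as seen in the values. The submitters' processing notes name mm10 (GRCm38), CASAVA, FastQC, Trimmomatic, HISAT2 2.0.4, StringTie 1.3.0 and, for any of the samples, Bismark, with no role or order.

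Of 14468 identifiers, 14382 were found in a table of symbols, which restored 18 symbols turned into dates. Rows were summed over symbols. Median-of-ratios factors came from 10935 genes at 1 or more in every library, and scaled values are FPKM divided by 1.06 and 0.981 for young WT and KO and by 0.982 and 0.979 for old WT and KO. Differences used a pseudocount of 1, which understates low genes. A gene counted as measured where either library of a pair had a scaled value of 1 or more, and an unlisted gene was set to 0.5. Counts are of differences past 1.5-fold or 2-fold on that scale. Depth was estimated from short genes, of whose values 62.1% to 71.3% lay within 0.02 of whole steps, where chance gives 4%. A unit was taken as the larger step that the values allow, and it differs between young and old libraries. Scaling and the calling of changed genes were tested on simulated data. Those data took the estimated units as given, so the depth estimate itself was not tested. Python 3.11.15, numpy 2.4.6 and pandas 2.3.3 were used.

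Genes given in full were those past 1.5-fold in a KO comparison, the 3 largest KO differences of each class, its highest and lowest members, Srsf2, Sf3b1, U2af1 and Zrsr2. The lists' genes were those past 2-fold and up to 2 of the largest. The other members, and the genes named for age, were described after their values were seen. The members and lists were chosen with earlier results of these data known.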

Additional observations from a re-analysis of the deposited data

How the results depend on the processing

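Of the 9 alternatives, 8 include Srsf1, and in those it kept its direction at both ages and passed 1.5-fold in all but the unscaled young comparison, at 0.58. Unscaled, the young count past 1.5-fold was 0 higher and 2 lower, with Srsf9 at -0.63. The 28 members without an overlapping listed gene leave out Srsf1 and Srsf4. Of them, 0 passed 1.5-fold in the young and in the old KO comparison, and 0 were past 1.5-fold lower in old than in young WT. For old against young WT, 3 members were past 1.5-fold higher unscaled, with total scaling and with a pseudocount of 5. With that pseudocount 0 were past 1.5-fold lower. For old against young KO, 3 were past 1.5-fold higher with upper-quartile scaling, total scaling and a pseudocount of 5. With total scaling 2 were past 1.5-fold lower, and 0 were 2-fold higher with it or with the pseudocount. The median difference of that comparison was 0.080 with upper-quartile and -0.012 with total scaling. The other 162 summary values stayed within 1.5 times, or within 0.1 on the log2 scale for medians. The causes of these moves were not tested, except that fewer members enter where overlapping ones are left out. The labels give no replicate numbers, so no replicate block applies, and a fit of genotype with age as a block, whose only error would be the unlike KO differences of the 2 ages, was not run. Depth limits the lowest genes, Zrsr2, Sf3b5 and Hnrnpa1l2-ps, most.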

Other observations

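Ratios of partner genes, chosen after their values were seen, add to the levels. The U2AF heterodimer needs both subunits, and the ratio of U2af2 to U2af1 was 3.82 and 4.14 in young WT and KO and 2.88 and 2.17 in old WT and KO, lowest in old KO. Among SF3B genes, the ratio of Sf3b3 to Sf3b5, members of one complex, was 52.3, 43.2, 23.4 and 21.8 in that order, so that the per-length levels of its genes lay far apart in every library. The ratio of U2af1 to its minor-intron counterpart Zrsr2 was 5.02, 4.91, 10.01 and 11.6. Within the SR genes, Srsf1 and Srsf9 moved apart with genotype, and their ratio was 2.50 and 6.15 in young WT and KO and 2.14 and 4.41 in old WT and KO. These ratios were not tested.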
